A study of Homo sapiens with 4 samples.

Results

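The genes described here are 35 components of the Notch pathway, comprising the receptors, their ligands, the enzymes that glycosylate and cleave the receptors, the nuclear complex, regulators of the receptor, and the HES and HEY targets. They form a list of names, drawn up with earlier results of these data known, and all 35 were found among the 25690 gene rows of the deposited table. RNA was sequenced after polyA selection from day 7 cultures of H9, an established line of human embryonic stem cells, which the series describes as non-neural ectoderm. The first group is wild type (WT, 2 libraries). The second carries the genotype label TFAP2A knockout (2 libraries). The series title also names TFAP2A, and the count columns of these libraries are named 2AKO. Their sample titles name TFAP2C, so they are called KO-labelled libraries throughout. Both groups share the cell line and the day, and the labels give no clone, guide or differentiation protocol.

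Notch receptors and their ligands are membrane proteins of neighbouring cells. Binding of a Delta-like or Jagged ligand exposes the receptor to ADAM proteases and then to gamma-secretase, and the freed intracellular domain enters the nucleus, where it joins the DNA-binding factor RBPJ and a Mastermind coactivator and switches on HES and HEY repressors. In the early ectoderm this pathway is known for lateral inhibition, in which a cell that makes more ligand keeps its neighbours from taking the same fate, and for boundaries between epidermis, placode and neural crest.

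The libraries held 17838204 to 21797850.5 counts, and levels below are CPM, counts scaled by library size with TMM factors. TFAP2A itself was at 171 and 198 CPM in WT and at 133 and 121 CPM in KO-labelled libraries, so its transcript was reduced and not absent. Since 22.3% of all genes tested were also lower, this fall does not check the genotype label. All 12 markers of surface ectoderm, a list that includes TFAP2A itself, exceeded 1 CPM on average in both groups. In KO-labelled libraries 8 of the 12 were lower, TFAP2A among them, against 22.3% of all genes tested. The labels do not say whether replicate libraries came from separate cultures, so p-values reflect only how far these libraries spread, and that spread may be technical. In bulk RNA, fewer cells of a type and less RNA per cell cannot be told apart.

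Of the 35 genes, 30 passed the filter on low counts and were tested, and 19 of these passed an adjusted p of 0.05 (edgeR's quasi-likelihood test, Benjamini-Hochberg adjustment over all 15643 genes tested), 7 of them higher and 12 lower in KO-labelled libraries. Over all genes tested 44.2% passed, 21.9% higher and 22.3% lower. The median log2 fold change of the 30 was -0.01, against 0.00 for all genes tested, and the median size of the change was 0.37 against 0.25. Changes of at least 2-fold that passed were seen in DLL1 and HEY2, while 11.3% of all genes tested had such a change. The values of the groups did not overlap for 25 of the 30, 13 higher and 12 lower, against 73.1% of all genes tested, 36.6% in each direction. HEY2, DLL1 and the receptors NOTCH1 and NOTCH3 kept their calls in all 13 alternative analyses, as did 9 other members. Adjusted p-values below are from the same test.

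**Figure D1:**
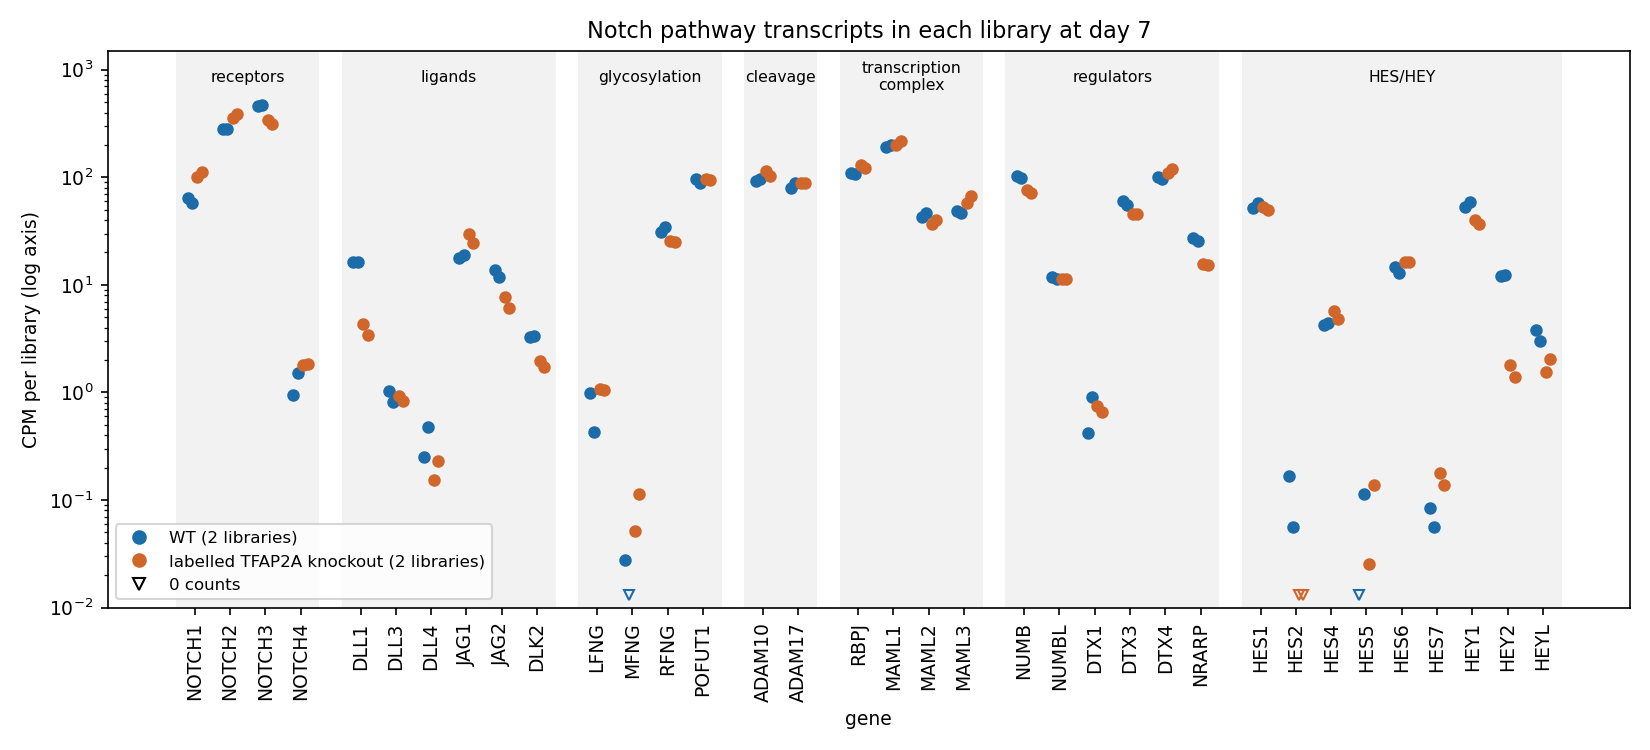
CPM of the 35 genes (log axis) in each library, with WT in blue, KO-labelled libraries in orange, and open triangles at the lower edge for libraries with 0 counts. NOTCH2 and NOTCH3 have the highest levels, every ligand lies below 30 CPM, and DLL1 and HEY2 show the widest gaps between the groups among the 30 genes tested.

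The promoters of 5 HES and HEY genes show the letters that RBPJ is known to bind. The core GTGGGAA was searched on both strands of RefSeq promoter windows (GRCh38.p14, 250 bases before to 50 after the start). Windows were matched for 29 of the 35 genes, and not for DLL1, DLL3, MFNG, DTX1, DTX3 and HEY1. GTGGGAA was present in 5 of the 29, namely HES1, HES4, HES5, HEY2 and HEYL. These are 5 of the 8 HES and HEY windows, and 0 of the other 21 held it. Of 35116 promoter windows of the same length, 6.25% held it. The AP-2 palindrome GCCNNNGGC, of the kind that TFAP2A and its relatives are known to bind, reads the same on both strands. It was present in 14 of the 29 windows, and in 23.2% of all windows. For both motifs the windows were not matched for base composition, so these shares do not show an enrichment. No base belongs to matches of both motifs in the stretches printed here, although they stand side by side in HEYL. A match is only a run of letters and does not show binding.

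The 250 bases before the start of the 5 genes with a GTGGGAA match are given 5′ to 3′ on the gene's strand, with matches of either motif in capitals (GTGGGAA, or TTCCCAC for the other strand, and GCCNNNGGC). They are shown because they place HEY2 and HEYL, which fell, beside HES1 and HES4, which did not pass, and HES5, which did not pass the filter on low counts. In HES1 (chr3:194135898-194136147, plus strand), HES4 (chr1:1000098-1000347, minus strand) and HES5 (chr1:2530264-2530513, minus strand) a GTGGGAA began 85, 77 and 81 bases before the start. The bases just after the HES5 start were found in no GENCODE transcript of HES5, unlike those of HES1, HES4, HEY2 and HEYL. This check also failed for NOTCH1, NOTCH2, NOTCH3, MAML1, MAML2, NRARP and HES7, whose windows held no GTGGGAA. HES5 also held a match on the other strand, which began 224 bases before the start. In HEY2 (chr6:125749382-125749631, plus strand) and HEYL (chr1:39639644-39639893, minus strand) the match within the stretch was on the other strand and lay 213 and 178 bases before it. HEY2 holds another GTGGGAA that begins 4 bases before the start and runs past it, so that its first letters close the printed stretch in lower case.
HES1: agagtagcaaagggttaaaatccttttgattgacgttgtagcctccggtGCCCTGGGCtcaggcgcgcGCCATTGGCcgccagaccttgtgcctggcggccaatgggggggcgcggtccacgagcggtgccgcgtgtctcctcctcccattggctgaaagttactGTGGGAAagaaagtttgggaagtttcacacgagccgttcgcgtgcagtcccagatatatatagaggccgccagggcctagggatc
HES4: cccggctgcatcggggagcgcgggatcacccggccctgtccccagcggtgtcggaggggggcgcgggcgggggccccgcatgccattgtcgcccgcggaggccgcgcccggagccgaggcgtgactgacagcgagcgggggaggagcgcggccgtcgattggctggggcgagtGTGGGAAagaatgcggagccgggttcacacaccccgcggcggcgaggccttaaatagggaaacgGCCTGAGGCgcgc
HES5: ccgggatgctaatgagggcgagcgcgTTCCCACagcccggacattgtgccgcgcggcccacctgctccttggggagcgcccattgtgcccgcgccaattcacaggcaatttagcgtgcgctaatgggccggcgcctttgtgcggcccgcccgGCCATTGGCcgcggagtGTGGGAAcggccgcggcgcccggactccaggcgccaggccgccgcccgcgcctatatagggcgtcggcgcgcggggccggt
HEY2: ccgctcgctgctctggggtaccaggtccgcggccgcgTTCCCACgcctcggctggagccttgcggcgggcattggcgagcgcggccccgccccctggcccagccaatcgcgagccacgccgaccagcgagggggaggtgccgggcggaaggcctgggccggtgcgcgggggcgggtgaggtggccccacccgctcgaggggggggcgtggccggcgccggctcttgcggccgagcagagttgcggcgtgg
HEYL: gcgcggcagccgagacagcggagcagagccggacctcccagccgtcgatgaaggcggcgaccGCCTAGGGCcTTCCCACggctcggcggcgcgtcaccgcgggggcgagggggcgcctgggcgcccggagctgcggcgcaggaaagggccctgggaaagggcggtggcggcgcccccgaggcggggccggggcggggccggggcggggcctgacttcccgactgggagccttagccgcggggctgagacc

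Among the 4 receptors, NOTCH1 and NOTCH2 were higher and NOTCH3 lower in KO-labelled libraries, and their summed level differed little. NOTCH1 (chromosome 9, 139388896 to 139440238, minus strand, hg19), the receptor of most developing epithelia and neural tissue, was at 63.9 and 57.8 CPM in WT and at 99.7 and 111 CPM in KO-labelled libraries. The groups did not overlap, and the difference was 1.73-fold (log2 fold change 0.79 with an SE of 0.07, adjusted p = 6.32e-07). NOTCH2 was at 283 and 279.7 CPM in WT against 354 and 388 CPM, 1.32-fold higher (log2 fold change 0.40 with an SE of 0.05, adjusted p = 3.32e-05). NOTCH2NL, a partial copy of NOTCH2 with which reads could be shared, was at 20.3 and 20.4 CPM in WT against 20.5 and 19.1 CPM and did not pass (adjusted p = 0.773).

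NOTCH3 (chromosome 19, 15270444 to 15311792, minus strand, hg19), known from smooth muscle and pericytes and also present in epithelia, was the receptor with the highest level in WT. It was at 460 and 472 CPM there and at 344 and 314 CPM in KO-labelled libraries, 1.42-fold lower (log2 fold change -0.50 with an SE of 0.05, adjusted p = 3.54e-06). Both libraries of each group stood on opposite sides of the gap between the groups. NOTCH4, a receptor best known from endothelium, was near 1 CPM, at 0.951 and 1.53 CPM in WT and 1.79 and 1.86 CPM in KO-labelled libraries, and did not pass (95% interval of the log2 fold change -0.11 to 1.21, adjusted p = 0.168).

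To compare levels between genes, CPM were divided by the length in kb of the longest GENCODE protein-coding transcript, since the table gives no transcript length. On this scale the 4 receptors together were at 84.9 and 85.5 CPM per kb in WT and at 81.7 and 82.5 in KO-labelled libraries. The summed CPM without length were 808 and 811 in WT against 799 and 815. The make-up of this sum shifted. NOTCH3 held 62.5% and 63.7% of the length-scaled sum in WT and 48.5% and 43.9% in KO-labelled libraries. NOTCH2 went from 29.3% and 28.7% to 38.02% and 41.3%, and NOTCH1 from 8.08% and 7.27% to 13.1% and 14.5%. In WT the order was NOTCH3, NOTCH2, NOTCH1, NOTCH4 with gaps wider than the spread between libraries, and it was the same without scaling for length. In KO-labelled libraries NOTCH3 still led NOTCH2 in each library, at 39.7 against 31.1 and at 36.3 against 34.05 CPM per kb, but without scaling for length NOTCH2 led there, at 44.3% and 47.6% of the summed CPM against 43.0% and 38.6% for NOTCH3, so this order depends on the lengths used. No test was made of these sums and shares.

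The summed length-scaled level of the canonical ligands was lower than that of the receptors, and DLL1 had the largest change among the 5 ligands in the test. DLL1 (chromosome 6, 170591294 to 170599697, minus strand, hg19), the Delta-like ligand of lateral inhibition in neural and somite tissue, was at 16.2 and 16.4 CPM in WT. In KO-labelled libraries it was at 4.33 and 3.39 CPM, 4.25-fold lower (log2 fold change -2.09 with an SE of 0.15, adjusted p = 5.80e-08). The WT libraries lay within 0.2 CPM of each other, far above both others. JAG1 (chromosome 20, 10618332 to 10654694, minus strand, hg19), a Jagged ligand of ear, vessel and epidermal tissue, moved the other way. It was at 17.8 and 18.8 CPM in WT against 29.8 and 24.5 CPM, 1.48-fold higher (log2 fold change 0.56 with an SE of 0.11, adjusted p = 0.00067). JAG2, a Jagged ligand with roles in limb and craniofacial epithelium, was at 13.8 and 11.9 CPM in WT against 7.78 and 6.10 CPM, 1.85-fold lower (log2 fold change -0.89 with an SE of 0.15, adjusted p = 0.000298).

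DLK2, a Delta-like protein that lacks the receptor-activating domain, fell from 3.24 and 3.37 CPM to 1.95 and 1.72 CPM (log2 fold change -0.85 with an SE of 0.23, adjusted p = 0.0077), which did not pass with DESeq2 (adjusted p = 0.0994) or without knockout replicate 2 (0.0511). Its row shares 74 bases with ABCC10 on the other strand, and reads of that overlap cannot be assigned without strand, whose use in counting was not given in the sources used here. DLL3, a Delta-like protein that acts inside the cell and does not activate receptors of neighbours, stayed near 1 CPM in all libraries and did not pass (95% interval -0.84 to 0.74). DLL4, the Delta-like ligand of sprouting vessels, had 4.5 and 8.5 counts in WT against 3 and 5 in KO-labelled libraries, too few to pass the filter on low counts.

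The canonical ligands DLL1, DLL3, DLL4, JAG1 and JAG2 together were at 10.98 and 10.9 CPM per kb in WT and at 8.15 and 6.65 CPM per kb in KO-labelled libraries. DLL1 held the largest share in WT, 46.5% and 47.5%, and JAG1 followed with 27.3% and 29.2%. In KO-labelled libraries JAG1 held 61.5% and 61.9%, and DLL1 16.7% and 16.1%, about level with JAG2 at 16.4% and 15.7%. Without scaling for length JAG1 led in WT too, at 36.3% and 38.9% against 32.99% and 33.8% for DLL1, so the order of these genes in WT depends on the lengths used. The directions of the shifts do not, since each gene keeps its length.

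**Figure D2:**
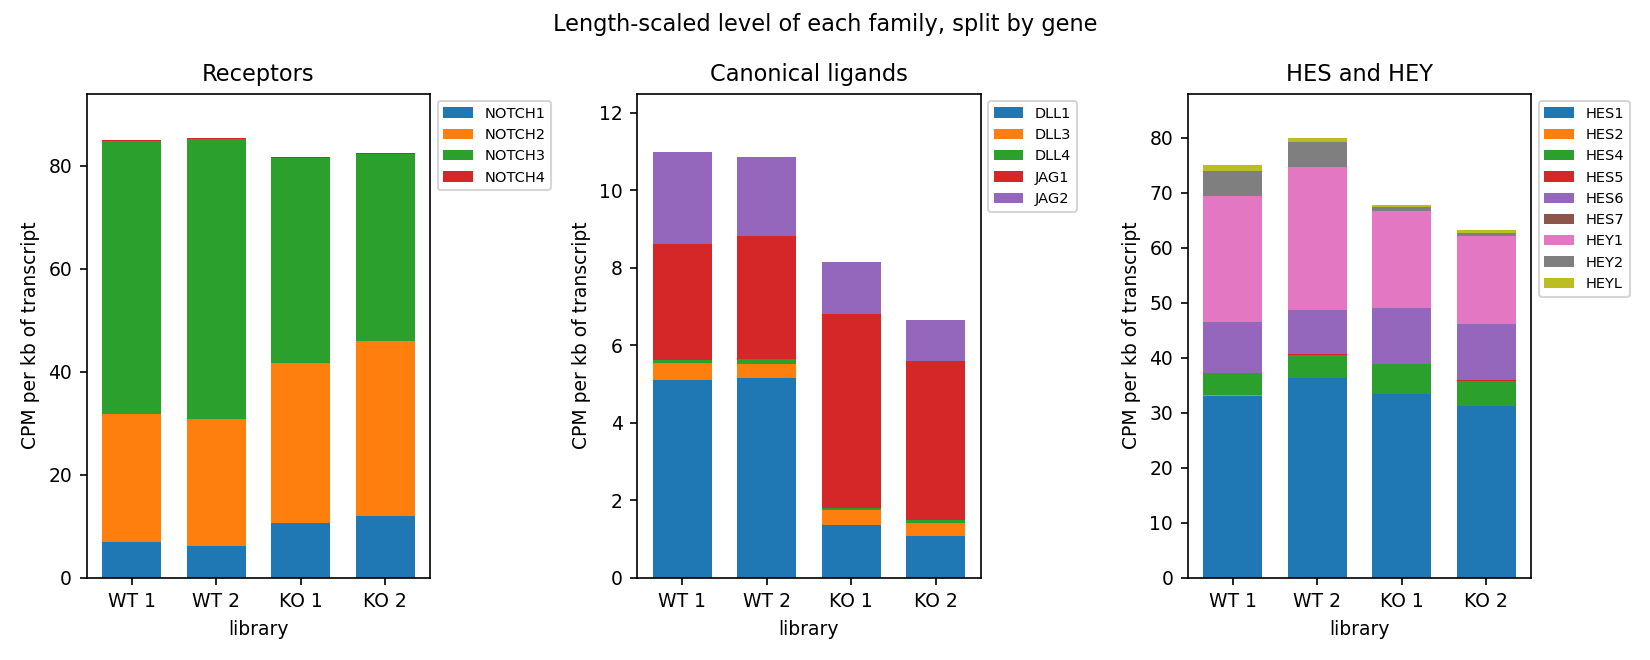
Length-scaled level (CPM per kb of transcript) of the receptors, the canonical ligands and the HES and HEY genes in each library, as bars stacked by gene. Receptor sums lie between 81.7 and 85.5 with a smaller NOTCH3 part in KO-labelled libraries (KO 1 and KO 2), and the largest part of the ligand bars is DLL1 in WT and JAG1 in KO-labelled libraries on this scale.

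Of the enzymes that modify and cleave the receptor, RFNG fell and ADAM10 rose. POFUT1, which adds the O-fucose that ligand binding needs, was at 96.1 and 89.1 CPM in WT against 96.7 and 94.7 CPM, with a 95% interval of the log2 fold change from -0.08 to 0.18. The fringe enzymes extend that sugar and shift receptors between Delta-like and Jagged ligands. RFNG supplied 97.5% and 99.1% of the length-scaled fringe level in WT and fell from 30.9 and 34.6 CPM to 25.8 and 25.3 CPM (log2 fold change -0.36 with an SE of 0.09, adjusted p = 0.00383), which did not pass when WT replicate 2 was left out (adjusted p = 0.0642). LFNG was at 0.979 and 0.425 CPM in WT against 1.08 and 1.05 CPM and did not pass (95% interval -0.34 to 1.41). MFNG had at most 2.5 counts in any library.

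ADAM10, the main protease of ligand-activated receptors, rose from 91.5 and 95.5 CPM to 115 and 103 CPM (log2 fold change 0.22 with an SE of 0.06, adjusted p = 0.0116). Leaving out knockout replicate 1 or WT replicate 1 raised its adjusted p to 0.128 or 0.109. ADAM17, a related sheddase, was at 78.7 and 87.7 CPM in WT against 88.7 and 88.2 CPM and did not pass (95% interval -0.05 to 0.23).

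Of the nuclear complex, RBPJ and MAML3 rose and MAML2 fell. RBPJ, the DNA-binding factor of the pathway, went from 109 and 107 CPM to 130.3 and 122 CPM (log2 fold change 0.23 with an SE of 0.06, adjusted p = 0.00443). The Mastermind coactivator gene MAML3 went from 48.7 and 46.8 CPM to 57.7 and 66.5 CPM (log2 fold change 0.38 with an SE of 0.08, adjusted p = 0.00104). MAML2 fell from 43.1 and 46.9 CPM to 36.98 and 40.03 CPM (adjusted p = 0.0265), which did not hold with DESeq2 (adjusted p = 0.138), without WT replicate 2 (0.222) and without knockout replicate 1 (0.161). MAML1 led the Mastermind genes, at 71.9% and 72.1% of their length-scaled level in WT and 72.1% and 71.1% in KO-labelled libraries, and did not pass (95% interval -0.02 to 0.21).

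Regulators of the receptor were lower in 3 of 6 cases and higher in 1, against 22.3% and 21.9% of all genes tested. NRARP, a small ankyrin-repeat protein that is induced by Notch and restrains it, fell from 27.3 and 25.7 CPM to 15.7 and 15.3 CPM, 1.71-fold lower (log2 fold change -0.77 with an SE of 0.10, adjusted p = 1.45e-05). NUMB, an endocytic adaptor that removes receptors from the membrane, fell from 103 and 99.01 CPM to 76.8 and 72.1 CPM (log2 fold change -0.44 with an SE of 0.06, adjusted p = 3.93e-05). For both genes the groups lay further apart than the libraries within them. The related NUMBL was at 11.8 and 11.3 CPM in WT and at 11.3 CPM in each KO-labelled library (95% interval -0.30 to 0.24).

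The Deltex genes, which encode ubiquitin ligases of the receptor's fate in the cell, differed among themselves. DTX3 fell from 60.5 and 55.1 CPM to 45.4 and 45.5 CPM (adjusted p = 0.00111). DTX4 rose from 101 and 96.5 CPM to 111 and 120.1 CPM (adjusted p = 0.00758), which did not hold when WT replicate 2 (adjusted p = 0.0693) or knockout replicate 2 (0.0817) was left out. DTX1, which T cells use as a Notch target, stayed under 1 CPM in every library, and its 95% interval of -0.96 to 0.97 leaves a change of that size undetectable at this depth.

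Among the targets, the 3 HEY genes fell, and none of the 3 HES genes in the test passed, while 22.3% of all genes tested were lower. HEY2 (chromosome 6, 126070732 to 126082415, plus strand, hg19), a repressor of heart, vessel and inner ear development, was at 12.1 and 12.3 CPM in WT and at 1.82 and 1.40 CPM in KO-labelled libraries. This was 7.58-fold lower (log2 fold change -2.92 with an SE of 0.19, adjusted p = 1.45e-08), and the widest difference of the 30 genes. HEY1, a target in many tissues, fell from 52.6 and 59.4 CPM to 40.5 and 36.8 CPM, 1.45-fold lower (log2 fold change -0.54 with an SE of 0.08, adjusted p = 7.43e-05). HEYL fell from 3.77 and 2.98 CPM to 1.56 and 2.04 CPM (log2 fold change -0.92 with an SE of 0.25, adjusted p = 0.00798), and this call was lost with DESeq2 (adjusted p = 0.0783), without WT replicate 1 (0.0983) and without knockout replicate 1 (0.0633).

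HES1, the most widespread HES repressor and a direct target of the pathway in most cell types, was at 52.2 and 57.2 CPM in WT and at 52.7 and 49.3 CPM in KO-labelled libraries. The groups overlapped, and the 95% interval of its log2 fold change was -0.26 to 0.05. HES4 was at 4.22 and 4.42 CPM in WT against 5.66 and 4.79 CPM (95% interval -0.13 to 0.65). HES6, which is known to oppose HES1, was at 14.8 and 12.9 CPM against 16.2 CPM in each KO-labelled library (95% interval -0.02 to 0.47). The intervals of HES1 and HEY2 lie far apart, but no test of the difference between genes was made. HES1 and HEY2 both hold GTGGGAA in the promoter stretches printed above.

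HES2, HES5 and HES7 were removed by the filter on low counts, and none of them passed when it was lifted. HES5, a target typical of neural progenitors, had 0 and 2 counts in WT against 0.5 and 3 in KO-labelled libraries. HES7, the oscillating repressor of somite formation, had 1 to 3.5 counts in each library. HES2 had 3 and 1 counts in WT and 0 in both KO-labelled libraries. A count of 0 allows up to 3 counts, which are 0.137 to 0.170 CPM at these depths. By length-scaled level HES1 led the family with 44.2% and 45.3% in WT, followed by HEY1 with 30.6% and 32.4%. Without scaling for length HEY1 was first, at 37.6% and 39.8% against 37.3% and 38.3% for HES1, so this order depends on the lengths used. The HEY2 share went from 6.03% and 5.73% to 1.001% and 0.826%.

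**Figure D3:**
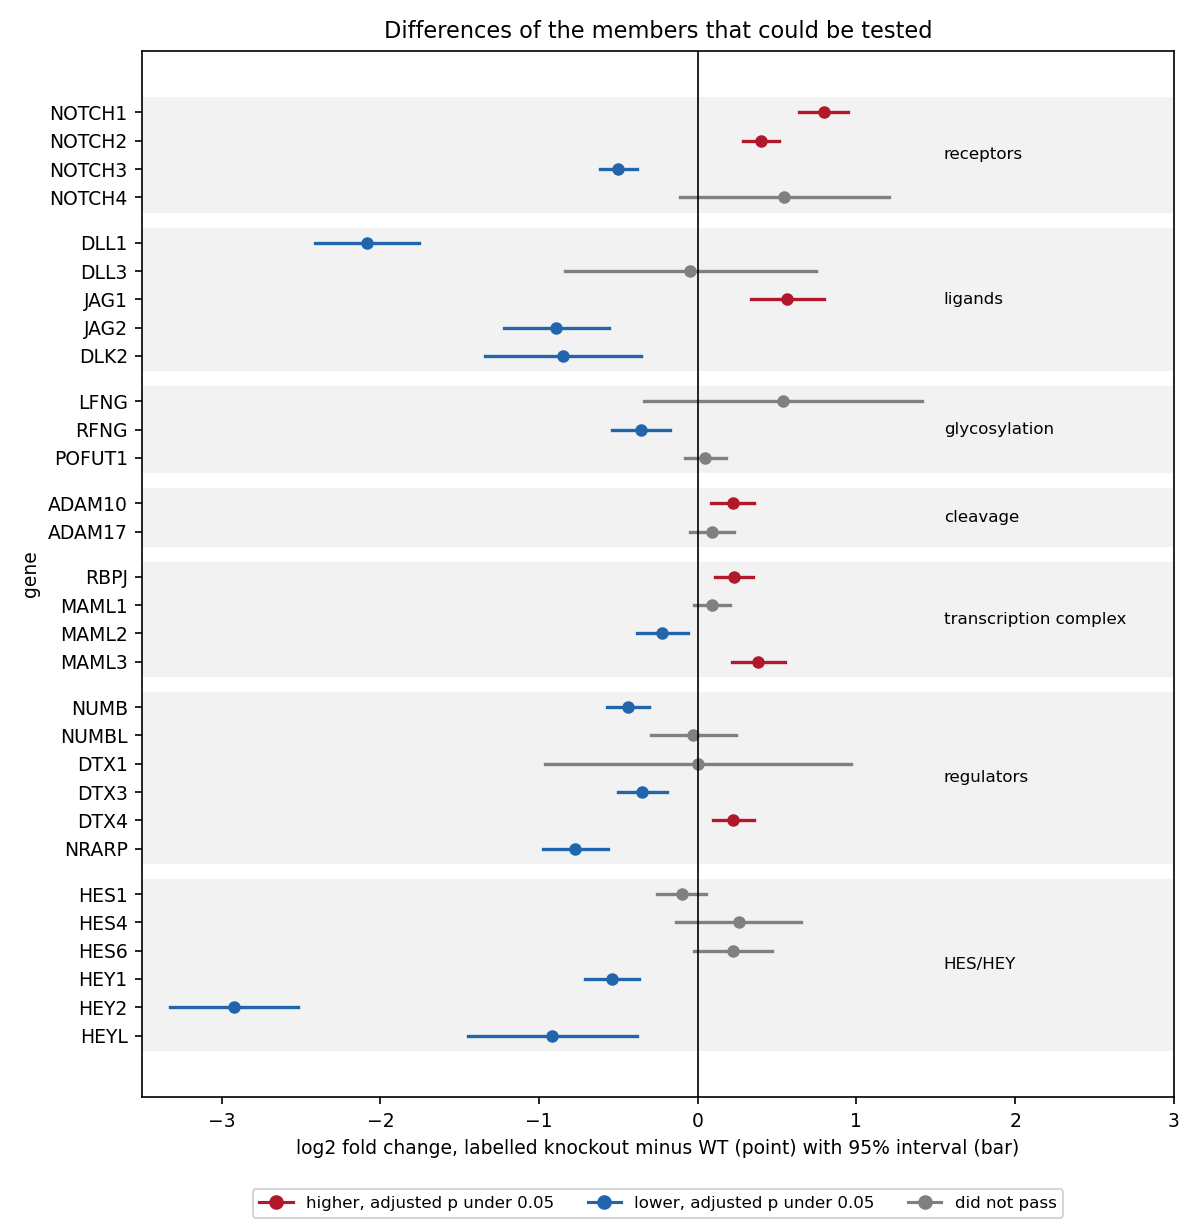
Log2 fold change (labelled knockout minus WT) of the 30 genes tested with 95% intervals, grouped by role and coloured by call. HEY2 and DLL1 lie furthest to the left at -2.92 and -2.09, NOTCH1 furthest to the right among the calls at 0.79, and genes at low counts such as DTX1 and DLL3 have the widest intervals.

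**Figure D4:**
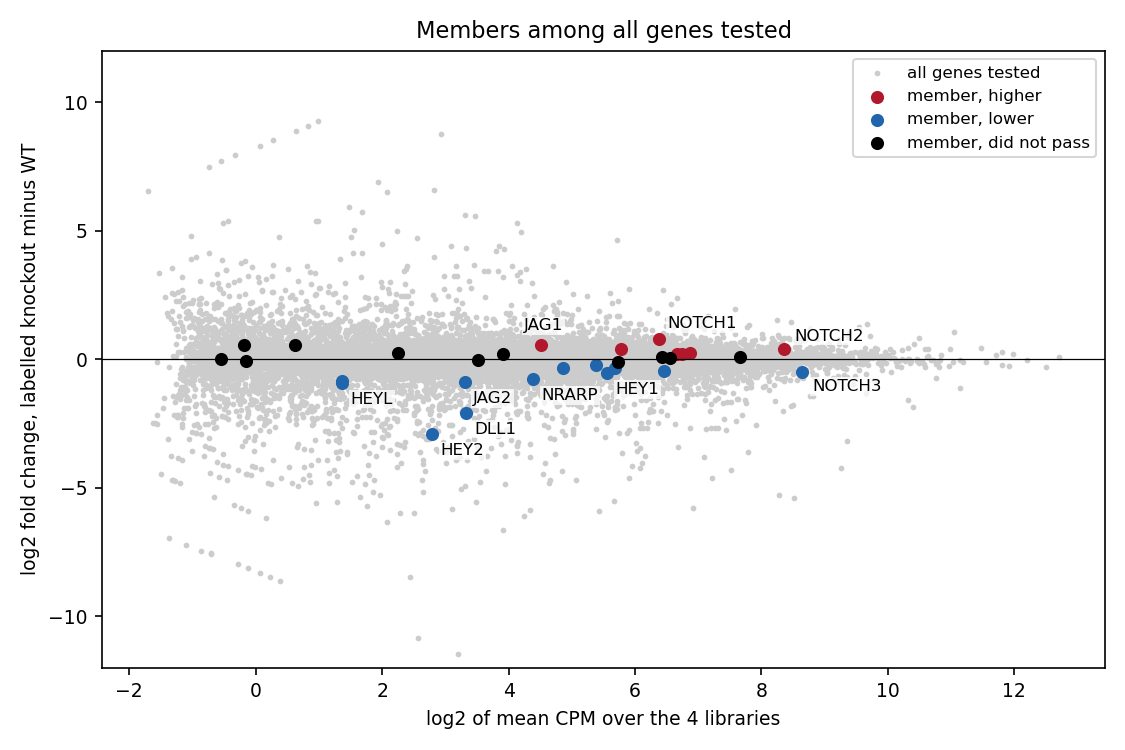
Log2 fold change against the log2 of mean CPM for all 15643 genes tested (grey) and the 30 Notch pathway genes tested (coloured by call). HEY2 and DLL1 lie below the other members, with changes at least as large in size as those of 98.1% and 96.3% of all genes tested.

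The other genes of the pathway were taken from a list of 36, of which 35 passed the filter on low counts, with 8 higher and 11 lower, or 54.3% against the 44.2% of all genes. Gamma-secretase, which releases the intracellular domain, had 2 of 6 subunit genes higher and 2 lower. PSEN2, a catalytic subunit, rose from 17.7 and 16.0 CPM to 26.9 and 24.1 CPM (log2 fold change 0.60 with an SE of 0.10, adjusted p = 0.000272), and APH1A, a scaffold subunit, fell from 217 and 210.2 CPM to 181 and 186 CPM (adjusted p = 0.00254). Of the 4 ubiquitin ligases that activate ligands by endocytosis, 2 were higher and 1 lower. NEURL1B rose from 25.3 and 23.02 CPM to 34.5 and 36.3 CPM, and NEURL1 fell from 2.49 and 1.81 CPM to 1.18 and 0.894 CPM.

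Among 6 genes of receptor processing and turnover, 2 fell and 1 rose, or 50% against the 44.2% of all genes tested. FURIN, the convertase that first cleaves the receptor in the secretory path, fell from 197 and 203 CPM to 118 and 120.3 CPM (log2 fold change -0.75 with an SE of 0.05, adjusted p = 2.97e-08), and POGLUT1, which adds O-glucose to the receptor, rose from 13.6 and 15.1 CPM to 18.4 and 19.1 CPM. Of 16 coactivators and corepressors 4 fell and 2 rose, or 37.5%, which is below that share of all genes. Those that fell included the Groucho corepressor gene TLE3, from 235 and 248 CPM to 191 CPM in both KO-labelled libraries, and those that rose the deacetylase gene HDAC2, from 218 and 220.01 CPM to 292 and 279 CPM. All 3 non-canonical ligands passed. DLK1, a soluble or membrane-bound relative of DLK2, fell from 1980 and 2238 CPM to 627 and 525 CPM (log2 fold change -1.87 with an SE of 0.10). EGFL7, named after its values were seen, also fell (-0.57), while DNER rose from 0.671 and 0.652 CPM to 1.84 and 1.49 CPM (adjusted p = 0.00756). HES3 had 0 counts in all 4 libraries.

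Marker genes of other cell types that use these Notch genes moved in the same comparison. The 11 endothelial markers summed to 50.6 and 48.3 CPM in WT and 21.02 and 18.7 CPM in KO-labelled libraries. Of 4 testable genes 3 were lower, against 22.3% of all genes tested. CDH5, the endothelial cadherin, fell from 11.02 and 12.8 CPM to 0.333 and 0.596 CPM, and KDR and VWF were also lower. PECAM1 and SOX18, defining genes of endothelium, were however at 0 counts in all libraries. The PECAM1 row spans 10307 bases, and whether it covers the whole gene was not checked. TEK, the fourth testable marker, was at 15.2 and 11.6 CPM in WT against 15.3 and 12.9 CPM. Markers under the filter on low counts went both ways. TIE1 had 1 and 2.5 counts in WT against 9.5 and 7.5, and ERG 16 and 5.5 against 2.5 and 3. EMCN and ESAM had higher means in KO-labelled libraries, with overlapping groups. HEY2, DLL4 and NOTCH4 are also used by endothelium, and the part of such cells in their values was not tested.

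The 9 presomitic mesoderm markers summed to 8.64 and 7.66 CPM in WT against 5.25 and 4.22 CPM. Both testable genes were lower, against 22.3% of all genes tested, TBX6 (2.88 and 2.67 to 1.13 and 1.1 CPM) among them. TBXT, MSGN1 and RIPPLY2, defining genes of that tissue, were at 0 counts in all libraries. Mesenchyme markers summed to 1030.4 and 1063 CPM in WT against 664 and 751 CPM. Of these 8 genes 5 were lower and 1 higher, against 22.3% and 21.9% of all genes tested. PRRX1 fell from 43.6 and 37.1 CPM to 6.63 and 7.06 CPM, and LUM rose (adjusted p = 0.0465). The part of such cells in the values of DLL1, NOTCH3 and HEYL was not tested.

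Of 9 neural progenitor markers, all 5 testable genes rose, against 21.9% of all genes tested. The list summed to 19.5 and 18.3 CPM in WT against 73.6 and 49.2 CPM. Most of it was SOX2, at 11.7 and 10.9 CPM in WT against 51.8 and 31.4 CPM (adjusted p = 0.0399). OTX2, FEZF1, RAX and SIX6 did not pass the filter on low counts, and RAX was at 0 counts in all libraries. The neural target HES5 stayed at 0 to 3 counts in every library. SOX1, a neural progenitor factor, rose from 0.0559 and 0.0567 CPM (1 count in each WT library) to 1.28 and 0.687 CPM (25 and 15 counts). Markers of young neurons summed to 501 and 506 CPM in WT against 522 and 562 CPM, nearly all of it DCX, and 3 of 5 testable genes were higher. MYT1, a zinc finger factor of nascent neurons, rose from 0.727 and 0.113 CPM to 3.30 and 3.21 CPM. The 12 surface ectoderm markers, TFAP2A included, summed to 3553 and 3848 CPM in WT against 2660 and 2560.3 CPM. DLX5, a homeobox factor of the neural plate border, showed the largest fall among them, from 19.99 and 18.7 CPM to 7.58 and 5.41 CPM. The part of these cell types in the Notch values was not tested.

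**Figure D5:**
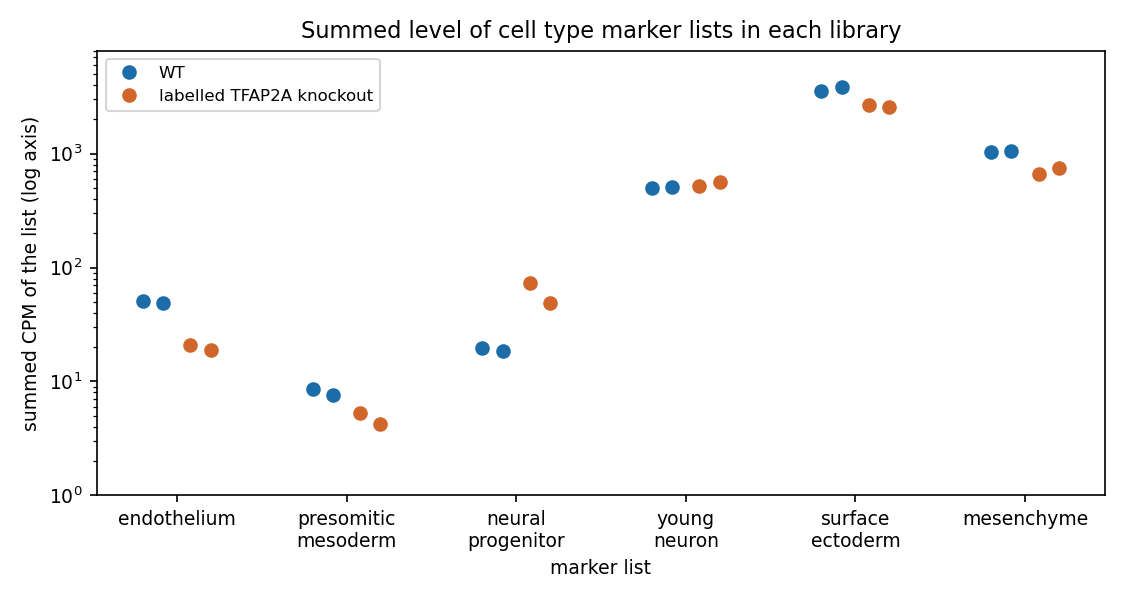
Summed CPM (log axis) of 6 lists of cell type markers in each library, WT in blue and KO-labelled libraries in orange. Endothelial, presomitic, surface ectoderm and mesenchyme sums were lower in KO-labelled libraries, the neural progenitor sum was higher, and the young neuron sum, nearly all DCX, differed little.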

How the data were processed

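The authors deposited a single table of estimated counts per gene for the 4 libraries, in steps of 0.5. Per the submitters' processing notes, reads were handled with TopHat and HOMER, with DESeq2 and hg38 also named. Versions, annotation and strand handling were not given in the sources used here. No member began within 2000 bp of its GRCh38 position and 42 rows lie on contigs named as in hg19, so table coordinates are printed as hg19. Counts were rounded, filtered with filterByExpr (15643 of 25690 genes kept) and tested on genotype with edgeR 4.0.16 (TMM, robust glmQLFit, glmQLFTest) in R 4.3.3. The SE is the log2 fold change over the square root of F, and 95% intervals use the fit's degrees of freedom. Alternatives were other scaling factors, filters, DESeq2 1.42.0, limma-voom 3.58.1, a replicate block and leaving out each library. Intervals and floors cover counting error or library spread only, and PCR duplicates cannot be told apart. On simulated counts for the same comparison (15633 genes), 69% of genes changed 1.5-fold and 87% of those changed 2-fold were recovered. The 100 genes changed at each size were drawn above a cutoff of expected counts. The rates therefore do not cover members at the lowest counts. Far fewer genes were changed there than were called in the data, and 17 of 15433 unchanged genes were called.

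The members and gene lists were chosen with earlier results of these data known. All 35 members are named. Of every other list the rule names the genes with the largest rise and fall among those that passed, and of a list with none, the most abundant. Other names were chosen after their values were seen. Marker lists held 8 to 12 genes. A further gene list is not reported here.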

Additional observations from a re-analysis of the deposited data

How the results depend on the processing

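Over 13 alternatives, 13 of the 19 members that passed kept direction and call in each, and DLK2, RFNG, ADAM10, MAML2, DTX4 and HEYL lost the call in 1 to 3, with the values given above. None of the 11 that did not pass passed elsewhere. Members called higher numbered 6 to 7 and lower 9 to 12, the 9 with DESeq2. All genes called ranged from 4929 (DESeq2) to 7269 (no low count filter), and leaving out a library gave 5232 to 5834. Signs changed only for 4 members near 0 when a library was left out: DLL3 (-0.21 to 0.13), POFUT1 (-0.0072 to 0.0993), NUMBL (-0.0681 to 0.0070) and DTX1 (-0.42 to 0.59, all log2). The titles share replicate numbers, but nothing says that these pair the libraries, and deviations of same-numbered libraries correlated at -0.05 across genes. With the replicate block, 6204 genes, 7 members higher and 12 lower were called. Depth limits NOTCH4, DLL3, LFNG and DTX1, and the 5 members under the filter, none of which passed without it. The median of all genes was 0.02 (log2) with upper quartile factors and nearer 0 in the other 12 alternatives.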
